A study of Homo sapiens with 16 samples.

Results

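Peaks of nuclear factor κB (NF-κB) subunits were examined in the centromere models of 7 human chromosomes, the stretches of the GRCh38 assembly that stand for the alpha-satellite arrays of chromosomes 2, 5, 6, 7, 10, 12 and 17. A peak was a member when it was at most 5000 bp long and its summit lay in 1 of these 7 spans, which add up to 18.51 Mb. This rule uses positions only and gave 22339 peaks of the 6172657 on chromosomes 1 to 22, X and Y over 12 lists. The 5 Mb on either side of each span, 70 Mb in all, served as flanks for comparison and held 133799 peaks.

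The lists come from chromatin immunoprecipitation followed by sequencing (ChIP-seq) in T47D, an established estrogen receptor-positive luminal A breast cancer line. Knockdown cells (DAB2IP KD in the labels) carried lentiviral shRNA against DAB2IP, which encodes a RasGAP that restrains Ras and NF-κB signaling. The study describes its control T47D cells in one place as carrying an empty vector and in another as expressing scrambled shRNA. Knockdown and control cells were grown in RPMI-1640 with fetal bovine serum, were selected with puromycin, and were crosslinked with disuccinimidyl glutarate and formaldehyde. Immunoprecipitation (IP) used antibodies against RELA (P65), RELB (RelB) or NFKB2 (NFkB2), which made 6 groups of 2 libraries, and the 4 input libraries have no list of their own. The labels do not say which hairpin a knockdown library carried, nor whether replicates came from separate cultures, so p-values measure only the spread between these libraries, which may be technical. The 3 IP libraries that share a condition and a replicate number form a preparation here, for which the labels give 1 input. Peak lists do not measure DAB2IP, so the knockdown itself could not be checked here.

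Alpha satellite is the tandem repeat at human centromeres, where the histone variant CENP-A marks the site of kinetochore assembly. In the assembly its arrays are generated models that hold the repeat variants of each chromosome without their true order, and many monomers are nearly identical, so short reads from an array often cannot be placed at 1 position. NF-κB subunits bind DNA as dimers. RELA is the main activating subunit of the canonical pathway, and RELB paired with p52, the processed product of NFKB2, acts in the noncanonical pathway.

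The gene table fits the label of the spans as far as it goes. It places 1 gene within the 7 spans, the pseudogene LOC101060796 at chr7:60991902-60993220, against 1628 genes in the flanks, of which 367 are protein coding. A single merged region overlapped that pseudogene, and 1 of the 12 libraries called it. The letters of the spans were not analysed here, so their satellite content was taken from the assembly models and was not measured.

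The lists were shallow and uneven. They held 75078 to 708764 peaks up to 5000 bp, called at an unadjusted p of 0.05, and 1540 of all 6172657 peaks, or 0.0249%, had a q (the p adjusted for multiple testing) of at most 0.05. In knockdown RELA replicate 1 and knockdown RELB replicate 1 the IP had been scaled down to its input, by factors of 0.91 and 0.98, and these had the shortest lists. Knockdown RELA replicate 2 and knockdown NFKB2 replicate 2 also listed intervals longer than 5000 bp in the spans. These covered 20.2% and 24.0% of the span length, and the other 10 libraries had 0. The density ratio over all spans, the medians, the recurrence of regions and their overlap are also given without these pairs of libraries.

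The first comparison asked how densely the centromere spans were covered with peaks. The spans held fewer peaks per Mb than their flanks in every library, and more peaks that passed multiple testing. Per library, 325 to 2405 peaks lay in the spans, a density of 17.6 to 130 peaks per Mb with a median of 119. The flanks had 27.8 to 217 peaks per Mb with a median of 176. The ratio of these densities was 0.385 at its lowest, in knockdown RELA replicate 2, and 0.754 at its highest, in control RELA replicate 1. On the log2 scale the mean ratio was −0.67 ± 0.26 (SD, n = 12) and it was below 0 in 12 of 12 libraries (exact two-sided sign-flip permutation p = 0.000488, the smallest that 12 libraries allow). Libraries of a preparation share an input. With the means of the 4 preparations as the units, the exact p was 0.125, the smallest that 4 values allow. The ratio stayed between −0.88 and −0.48 when each span was left out in turn, was −0.67 without the 2 scaled libraries and −0.58 without the 2 libraries with long intervals (exact p = 0.00195 each).

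**Figure D1:**
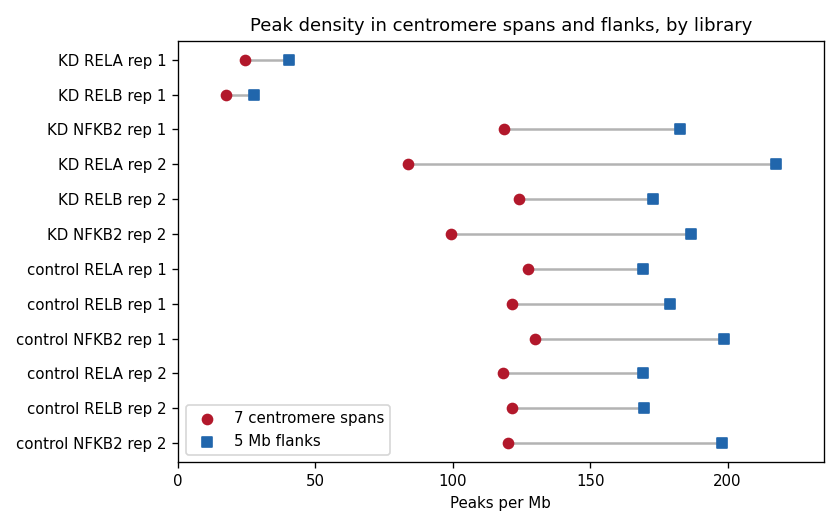
Peaks per Mb (x axis) in the 7 centromere spans (red circles) and in the flanks of 5 Mb on either side (blue squares), with 1 row per library and a grey line that joins the pair. The red circle lies left of the blue square in all 12 libraries, and the 2 scaled knockdown libraries sit apart at 24.3 and 17.6 peaks per Mb in the spans.

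The direction depended on which peaks were kept. Among summits of 2 or more fragments, a choice made after seeing the data, the log2 density ratio was −1.57 (exact p = 0.000488), further below 0 than with all peaks. In the 10 libraries without scaling, this filter took out 47.9% to 56.9% of span peaks but 1.39% to 5.39% of flank peaks. The lower ratio follows from these shares. The direction turned when only the strongest peaks were kept. Among peaks with a q of at most 0.05, the libraries had 16 to 64 in the spans and 0 to 8 in the flanks, 429 against 37 in total. The log2 density ratio was then 5.48 (0.5 peaks added to each count, exact p = 0.000488), and with the 20000 smallest p-values of each library it was 1.14 (exact p = 0.000488). The spans held 21.2% to 36.4% of all peaks with such a q in a library (median 26.8%), while they held 0.225% to 0.448% of all its peaks.

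As a share of span peaks, a q of at most 0.05 was reached by 1.25% (exact 95% confidence interval 0.843% to 1.78%) in control NFKB2 replicate 1, the lowest library, and by 6.15% (3.80% to 9.34%) in knockdown RELB replicate 1, the highest. In the flanks the share ran from 0 of the peaks of knockdown NFKB2 replicate 2, a count that allows up to 0.0230%, to 0.103% (0.0125% to 0.371%) in knockdown RELB replicate 1. These intervals cover counting error only. The difference between spans and flanks was 2.28 percentage points and was positive in 12 of 12 libraries (exact sign-flip permutation p, Benjamini-Hochberg adjusted over 5 features, 0.00061). Without the 2 scaled libraries, which had the highest shares, it was 1.78 points (adjusted exact p = 0.00195). Libraries of a preparation share an input, and the means of the 4 preparations allow no p that passes 0.05.

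**Figure D2:**
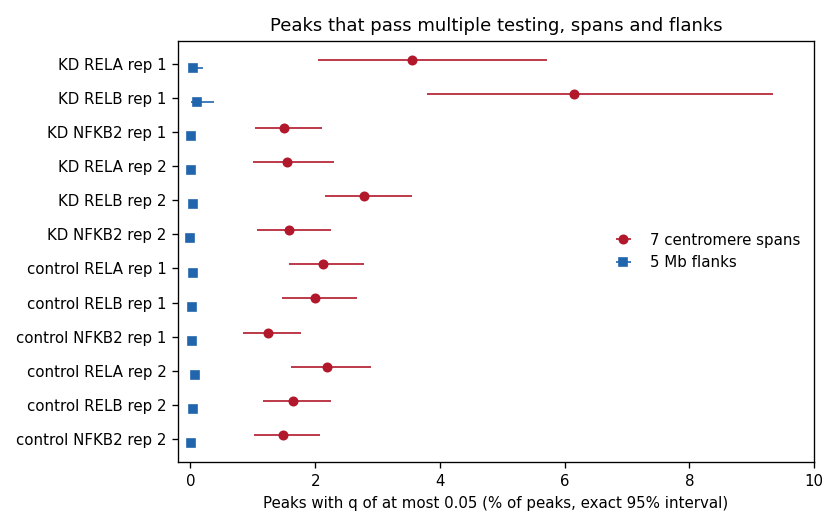
Share of peaks with a q of at most 0.05 (x axis, percent of the peaks of the region, bars are exact 95% confidence intervals) in the spans (red circles) and flanks (blue squares) of each library. The spans lie between 1.25% and 6.15% and the flanks at or below 0.103%, with no overlap of the intervals in any library.

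Span peaks were of unlike strength. The number of fragments at a summit and the local background were recovered from the listed fold enrichment and p. In the 10 libraries without scaling, 47.9% to 56.9% of span peaks rested on a single fragment, against 1.39% to 5.39% in the flanks. At the other end, 2.65% to 4.24% of span peaks had 10 or more fragments, against 0.0591% to 0.431% in the flanks. The 2 scaled libraries listed no peak of 1 fragment in either place, and 14.9% and 14.5% of their span peaks had 10 or more fragments. Summits of 50 or more fragments numbered 5 to 18 per library in the spans and 0 to 6 in the flanks. The deepest summit of a library held 169 to 279 fragments in the spans and 29 to 151 in the flanks.

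Medians were low in the spans. The median summit held 1 fragment in 9 libraries, 2 in knockdown NFKB2 replicate 2 and 4 in the scaled libraries, and the flanks had medians of 3 to 5, a mean difference of −2.33 fragments. Median local background was 0.156 to 0.588 fragments in the spans and 0.755 to 1.435 in the flanks, a difference of −0.92. Median length was 147 to 174 bp against 176 to 203 bp, a difference of −41.75 bp, and 147 bp, the shortest length listed, made up 31.1% to 57.4% of span peaks. Each of these 3 differences was negative in 12 of 12 libraries (adjusted exact p = 0.00061 each). Without the scaled libraries they were −2.60 fragments, −0.97 and −47.9 bp, and without those with long intervals −2.50, −0.97 and −42.4 bp (adjusted exact p between 0.00195 and 0.00244). Median fold enrichment was 0.20 lower in the spans (adjusted exact p = 0.0386) and lower in 10 of 12 libraries. The exceptions were the 2 scaled libraries, with 2.92 and 3.05 in the spans against 2.47 and 2.63 in the flanks. Without the 2 libraries with long intervals, the fold difference was −0.18 and lost its call (adjusted exact p = 0.109). With the means of the 4 preparations as the units, no p for these medians can pass 0.05.

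The spans were not alike. The span of chromosome 2 (92.19 to 94.09 Mb) was denser than its flanks in 12 of 12 libraries, with a median log2 ratio of 0.62 (range 0.0032 to 0.96). Those of chromosome 12 (34.77 to 37.19 Mb) and chromosome 6 (58.55 to 59.83 Mb) lay near their flanks, with medians of 0.026 and −0.034 and with 7 and 5 libraries above 0. Chromosome 6 had a median of 0.0098 without the libraries with long intervals. The remaining 4 were below their flanks in all 12 libraries: chromosome 10 (39.69 to 41.59 Mb) with a median of −0.36, chromosome 7 (58.17 to 61.53 Mb) with −0.996, chromosome 17 (22.81 to 26.89 Mb) with −1.28 and chromosome 5 (46.49 to 50.06 Mb) with −1.77. Peaks that passed multiple testing had another order. Chromosome 10 had 154 of the 429 over the 12 libraries, which was 6.90% of its peaks, and chromosome 17 had 104, or 3.76%. Chromosome 12 followed with 55, chromosome 2 with 46, chromosome 5 with 36, chromosome 7 with 25 and chromosome 6 with 9, which was 0.352% of its peaks. The densest span, that of chromosome 2, thus had 0.995% of its peaks past a q of 0.05, and 59.7% of its peaks (median over libraries) rested on a single fragment.

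**Figure D3:**
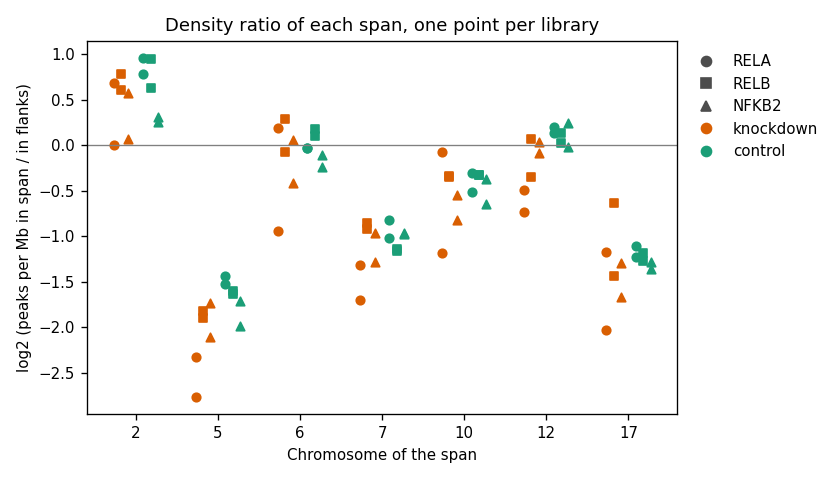
Log2 ratio of peaks per Mb in each span over its own flanks (y axis), with 1 point per library, colored by condition and shaped by antibody. Chromosome 2 lies above 0 in all 12 libraries and chromosomes 5, 7, 10 and 17 below 0 in all 12, and the lowest point, −2.77, is a knockdown RELA library on chromosome 5.

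Peaks were also uneven along a span. On chromosome 5, the first 1 Mb (46.49 to 47.49 Mb) held 140 peaks per Mb and library. The next 2 Mb (47.49 to 49.49 Mb) held 335 peaks over the 12 lists, 13.96 per Mb and library, of which 0 passed multiple testing and 92.5% were single fragments. The last 0.57 Mb held 129 peaks, and 25 of these had a q of at most 0.05. All of them lay from 49.49 to 49.69 Mb. The rest of the span, from 49.69 to 50.06 Mb, held 0 peaks over the 12 lists, and its length counts in the density of this span. On chromosome 17 the edges were dense, with 179 peaks per Mb and library from 22.81 to 23.21 Mb and 110 from 26.41 to 26.89 Mb, and the 3.2 Mb between them had 33.1. Single fragments made up 27.4% of the peaks at the first edge, 75.0% in the middle and 9.62% at the last edge. The middle still held 39 peaks with a q of at most 0.05, against 32 and 33 at the edges. On chromosome 10, 50 of the 154 such peaks lay in the 0.2 Mb from 40.49 to 40.69 Mb. The last 0.1 Mb of that span had a median background of 3.39 fragments, and 2.70% of its peaks were single fragments.

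**Figure D4:**
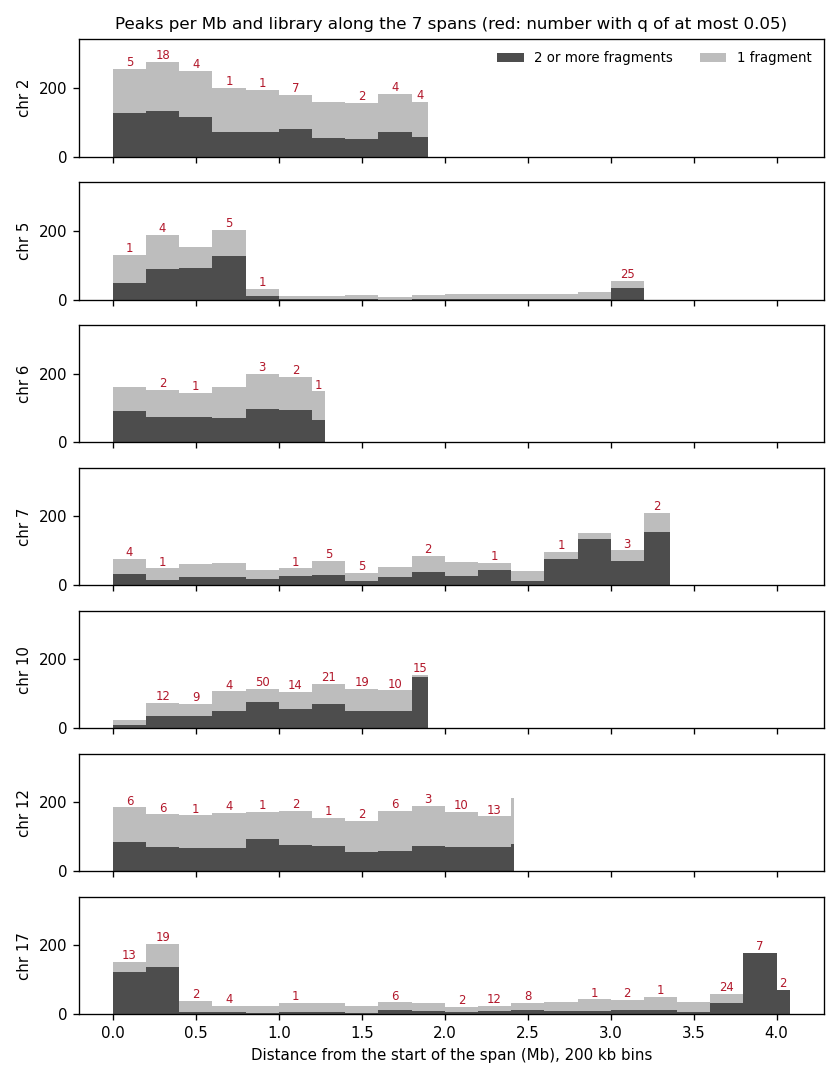
Peaks per Mb and library (y axis, summed over the 12 libraries and divided by their number) along each span in bins of 200 kb (x axis, distance from the start of the span in Mb), split into summits of 1 fragment (light grey) and of 2 or more (dark grey). Red numbers, summed over the libraries, count peaks with a q of at most 0.05, with 50 in 1 bin of chromosome 10 and 0 through most of chromosome 5.

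The second comparison asked whether the knockdown changed the density of the spans relative to their flanks. No difference was detectable with 2 libraries per group. For RELA, the log2 ratio was −0.73 and −1.38 with the knockdown, and the control libraries had −0.41 and −0.51. Both knockdown values lay below both control values, a difference of −0.59 (exact two-sided permutation p = 0.333, the smallest that 2 against 2 allow). The 2 knockdown libraries are the scaled one and one with long intervals. The difference was −0.27 without knockdown RELA replicate 2, 0.035 in bases covered and 0.023 among summits of 2 or more fragments. This last filter took no peak from the scaled library, but 51.6% to 54.9% of span peaks from the other RELA libraries. The value of 0.023 therefore does not compare like with like.

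For RELB, the values were −0.66 and −0.48 with the knockdown and −0.56 and −0.48 without it, so the groups overlapped (difference −0.05, exact p = 1). For NFKB2 they were −0.62 and −0.91 against −0.61 and −0.72, a difference of −0.10 (exact p = 0.667) that was 0.043 without knockdown NFKB2 replicate 2. Averaged over antibodies, the knockdown preparations were at −0.67 and −0.92 and the control preparations at −0.53 and −0.57, a difference of −0.25 (exact p = 0.333, again the smallest possible). It was below 0 in each of the 7 spans, from −0.46 on chromosome 5 to −0.13 on chromosome 6. Among peaks with a q of at most 0.05, the 4 differences lay on the other side of 0, at 0.52 (RELA), 0.095 (RELB), 1.75 (NFKB2) and 0.79 (all antibodies) (exact p between 0.333 and 1). These ratios rest on few flank peaks, with 0.5 added to each count. For RELA the flanks held 1 and 2 with the knockdown and 5 and 8 without it. They held 2 and 5 against 4 and 4 for RELB, and 1 and 0 against 3 and 2 for NFKB2.

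The numbers of span peaks with a q of at most 0.05 moved in no common direction. With the RELA antibody the knockdown libraries had 16 and 24 and the control libraries 50 and 48, so the groups did not overlap. With RELB they had 20 and 64 against 45 and 37, and with NFKB2 33 and 29 against 30 and 33. As shares of span peaks, the RELA groups overlapped, at 3.56% and 1.55% against 2.12% and 2.19%. On all chromosomes the RELA libraries had 44 and 113 peaks with a q of at most 0.05 with the knockdown and 150 and 184 without it. The RELA groups were thus separate there too. The spans held 36.4% and 21.2% of these peaks against 33.3% and 26.1%, which overlap. The 2 knockdown RELA libraries are the scaled one and one with long intervals.

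No difference between antibodies could be called, since the smallest p that 4 preparations allow is 0.125. Over the 4 libraries each, RELA had a mean log2 ratio of −0.76 ± 0.43, RELB one of −0.54 ± 0.09 and NFKB2 one of −0.72 ± 0.14 (SD, n = 4). Within preparations, NFKB2 minus RELB was −0.17 (exact p = 0.25, adjusted over 3 pairs 0.75), and −0.32 against the rest of the 7 chromosomes in place of the flanks (exact p = 0.125, unadjusted). In the same way, RELB minus RELA was 0.21 (exact p = 0.625, adjusted 0.875) and NFKB2 minus RELA was 0.042 (exact p = 0.875). RELB minus RELA rested on knockdown replicate 2, where it was 0.90, and was −0.015 without it.

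The next question was whether the same places were called. A larger share of span regions than of flank regions recurred between libraries. Merged over the 12 libraries, span peaks formed 9180 regions, of which 8.45% were called in 6 or more libraries, against 1.34% of 77696 flank regions and 1.503% on all chromosomes. Of the 52 regions called in all 12 libraries, 7 lay in the spans and 0 in the flanks. A single library alone called 48.4% of span regions, against 60.6% of flank regions and 60.3% on all chromosomes. Without the scaled libraries, 7.15% of span regions and 1.15% of flank regions were called in 6 or more of 10 libraries, and without those with long intervals 4.57% and 0.533%.

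Recurrence followed the preparation. The overlap of a pair of libraries was measured as a Jaccard index, their shared bases as a share of all bases under a peak in at least 1 of them. It averaged 12.8% in the spans for pairs of a preparation (12 pairs, range 6.55% to 16.1%). Replicates of a group averaged 7.18% (6 pairs, 3.12% to 10.7%), pairs with 1 antibody from opposite conditions 6.70%, and pairs that shared only the condition 7.12%. In the flanks the same kinds of pair averaged 4.16%, 2.24%, 2.31% and 2.25%. The mean of pairs of a preparation minus that of the other pairs was 0.0592 in the spans (exact one-sided permutation p = 0.00174, the smallest possible) and 0.0190 in the flanks (exact p = 0.00174). The separation by condition in the spans was 0.00441 (exact p = 0.333, the smallest possible) and that by antibody was 0.000257 (exact p = 0.398). Without the scaled libraries the value by preparation was 0.0588, and without those with long intervals 0.0580 (exact p = 0.00694 each). The condition value changed sign when a control library other than control RELB replicate 1 was left out, to −0.0014 at its lowest. Replicates with the same antibody therefore overlapped less than libraries that shared an input and had different antibodies.

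Regions tied to 1 condition were counted for each antibody as those called in both libraries of that condition and in neither of the other. For RELA, 44 of 4958 span regions (0.887%) were knockdown-only and 368 (7.42%) control-only, against 0.566% and 2.44% of RELA regions on all chromosomes. For RELB, 43 of 5464 (0.787%) were knockdown-only and 322 (5.89%) control-only, against 0.347% and 2.96%. For NFKB2, 197 of 5960 (3.31%) were knockdown-only and 259 (4.35%) control-only, against 2.09% and 2.93%. All 4 libraries of the antibody shared 38 RELA regions (0.766%), 29 RELB regions (0.531%) and 107 NFKB2 regions (1.795%), against 0.0347%, 0.0274% and 0.308%. Every one of these patterns held a larger share in the spans than on all chromosomes, and the excess was not limited to either condition. The scaled knockdown libraries of RELA and RELB had 450 and 325 span peaks, so few regions could be called in both knockdown libraries of these antibodies. At a q of at most 0.05 the counts were small, with 0 knockdown-only and 4 control-only regions of RELA, 0 and 5 of RELB, and 3 and 4 of NFKB2.

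The peaks that passed multiple testing made up 207 merged regions in the spans. Of these, 164 (79.2%) were called in both conditions, 158 (76.3%) with all 3 antibodies and 108 (52.2%) in 6 or more libraries. Of all 9180 span regions, 8.45% were called in 6 or more. The 207 were chosen for a small q in any library, and the same shares were not computed for the flanks. Whether this sharing is particular to the spans was therefore not tested. Without the scaled libraries there were 197 regions with such a q, of which 74.6% were called in both conditions. Without those with long intervals there were 194, of which 72.7% were. Over all 12 libraries, a further 23 were called in knockdown libraries alone and 20 in control libraries alone. The spans hold 1 annotated gene, and 0 of the 207 overlapped it, which that number nearly fixes in advance. For RELA, 4 regions had such a q in both knockdown libraries and 17 in both control libraries. RELB had 10 and 18 and NFKB2 had 12 and 17. Regions with such a q in at least 1 library of the group numbered 36 with the knockdown and 81 without it for RELA. They numbered 74 and 64 for RELB and 50 and 46 for NFKB2. The scaled knockdown libraries of RELA and RELB had 16 and 20 span peaks with such a q, which limits the counts in both knockdown libraries. Shares on all chromosomes are not given here.

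Of the 7 regions called in all 12 libraries, the 5 with the highest median −log10 q are described. The one at chr5:49630816-49631182, 367 bp in the last stretch of the chromosome 5 span, held 149 to 224 fragments at its summit over a background of 54.02 to 97.6, and so a fold enrichment of 1.60 to 2.85. Its −log10 q had a median of 18.8 and ran from 0.968 in knockdown RELA replicate 1 to 31.2 in control RELB replicate 1. At chr17:23016277-23016560 the summit held 105 to 153 fragments, and the −log10 q was between 2.29 and 29.4 in all 12. Fold enrichment there was 2.71, 3.65, 2.86, 2.82, 3.55 and 3.09 in the knockdown libraries (RELA, RELB and NFKB2, replicate 1 before 2). In the control libraries it was 1.95, 2.31, 2.22, 2.63, 1.86 and 2.32 in the same order. These do not overlap. The fragments at the summit did, at 109 to 153 with the knockdown and 105 to 153 without it, while the local background was 29.1 to 53.6 against 49.9 to 66.02. The 3 libraries of a preparation share an input, so each condition rests on 2 inputs, and no test was run on this region.

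Chromosome 10 had a pair of such regions in its dense 0.2 Mb stretch. The one at chr10:40615676-40615872 had 48 to 76 fragments, a fold of 3.05 to 4.17 and a −log10 q of 6.06 to 18.01. The other, at chr10:40556617-40556870, had 31 to 54 fragments, a fold of 3.004 to 4.19 and a −log10 q of 2.45 to 10.7. Both had a q of at most 0.05 in all 12 libraries, and their knockdown and control folds overlapped. The last of the 5, chr12:37024217-37024469, was weaker, with 16 to 33 fragments and such a q in 9 of 12 libraries, and it was also the strongest of its span.

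**Figure D5:**
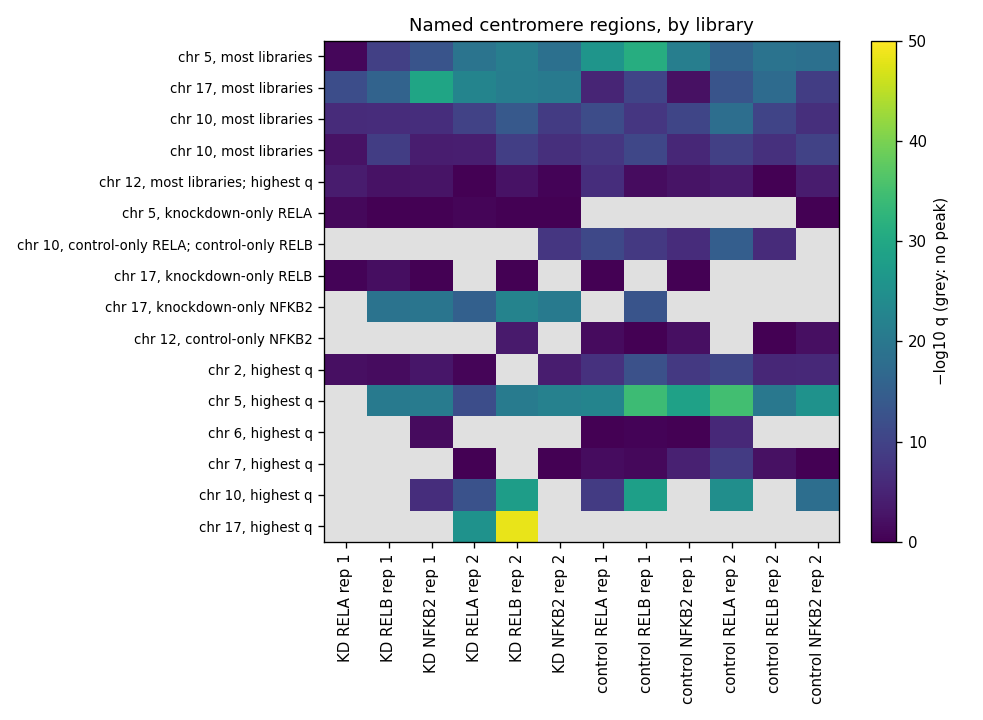
The −log10 q (color) of the named regions (rows, with the chromosome and the reason for naming) in each of the 12 libraries (columns, KD for knockdown), where grey means that the library called no peak. The top 5 rows are filled in all 12 libraries, and the rows named as tied to 1 condition for 1 antibody also hold calls from the other condition with another antibody.

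Each region named as tied to a condition for 1 antibody was also called in the other condition with another antibody, although each had more calls from its own condition over all 12 libraries, which the choice fixes in part. For both RELA and RELB the strongest control-only region was chr10:41186197-41186395, with a −log10 q of 10.8 and 14.8 in the control RELA libraries and 8.21 and 6.12 in the control RELB libraries. Control NFKB2 replicate 1 called it at 6.25, and so did knockdown NFKB2 replicate 2 at 7.87, with 33 fragments against 28 to 46 in the control libraries. It thus appeared in 5 control libraries and 1 knockdown library. The strongest knockdown-only NFKB2 region, chr17:24421360-24421527, had a −log10 q of 19.5 and 20.6 there. The knockdown libraries of RELB (18.96 and 22.4) and knockdown RELA replicate 2 (15.2) called it as well, and control RELB replicate 1 did so at 12.9. Calls came from 5 of 6 knockdown libraries and 1 of 6 control libraries, with 77 to 128 fragments. The control-only NFKB2 region chr12:34952228-34952509 had a −log10 q of 1.98 and 1.99, and its highest value, 3.65, was in knockdown RELB replicate 2.

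The other knockdown-only regions were weak. That of RELA, chr5:47210052-47210645, had 3 to 8 fragments and a −log10 q of at most 1.07, and all 6 knockdown libraries called it, with control NFKB2 replicate 2 as the only control. That of RELB, chr17:23166404-23166908, had 4 to 7 fragments and a −log10 q of at most 1.94, with 4 knockdown and 2 control libraries. No test was run on either region, and both were chosen for their pattern in the libraries of 1 antibody.

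The strongest region of each span was usually shared as well. On chromosome 5, chr5:49646015-49646204 was called in 11 libraries, each with a −log10 q of 11.7 or more and up to 34.8, over a fold of 4.003 to 5.65. On chromosome 2, chr2:92589218-92589468 had a −log10 q of 5.64 to 12.3 in the 6 control libraries and of 0.756 to 3.92 in the 5 knockdown libraries that called it. It was named for its value in a control library, so that gap is a description. On chromosome 10, chr10:40019667-40019838 reached 28.3 in control RELB replicate 1 and 27.8 in knockdown RELB replicate 2, and 5 libraries did not call it. The strongest regions of chromosome 6 (chr6:58783445-58783642) and chromosome 7 (chr7:59758943-59759332) reached 5.82 and 8.70, both in control RELA replicate 2, and were called in 5 and 8 libraries.

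The highest −log10 q in any span belonged to the least shared of these. At chr17:26885742-26885895, a 154-bp interval at the end of the chromosome 17 span, it was 48.3 in knockdown RELB replicate 2, with 155 fragments over a background of 30.7. It was 25.6 in knockdown RELA replicate 2, with 87 fragments over 17.3, and no other library called it. Both belong to 1 preparation. Strong regions called by 1 library alone were mostly from knockdown RELB replicate 2 too, which had 5 of the 9 with a q of at most 0.05. Control RELB replicate 1 had 3, and knockdown NFKB2 replicate 2 had 1. Knockdown RELB replicate 2 also had the most peaks with such a q of any library, 64 in the spans and 203 on all chromosomes. Among the 5, chr17:25389858-25390012 had a −log10 q of 43.6 and 108 fragments at a fold of 6.41, without a call in the other replicate of its group. These regions were singled out after their values were seen.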

How the data were processed

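ChIP-seq of 3 NF-κB subunits in T47D cells gave 12 IP peak lists in 6 groups of 2, grouped by their titles. The submitters' processing notes name CASAVA 1.8, BWA 0.7.12, MACS2 2.1.0, DiffBind and build hg38, and the authors had paired-end reads mapped and peaks called per library. How duplicate and multiply mapping reads were treated is not given in the sources used here. The deposited positions are in bp. The deposited score is 10 times −log10 p and was not needed. The deposited ratio gives enrichment at a summit as a fold over local background, and the authors' −log10 p-value and q-value were used within a list only.

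Each interval was counted once, which removed 563 entries. Fragments n and background λ at a summit were solved from the fold, (n × scale + 1)/(λ + 1), and the Poisson p, to whole numbers of fragments. Sequencing depth is unknown, since no read totals are listed. The lowest background, proportional to IP depth, was 0.038 to 0.071 fragments per library.

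Peaks sharing at least 1 bp were merged. Densities and medians were compared with exact sign-flip permutations over libraries, conditions with exact permutations of 2 libraries against 2 or of preparations, and Jaccard indices (66 pairs) with exact permutations of names. Adjustment was by Benjamini-Hochberg. The steps were tested on simulated data. Genes came from RefSeq GRCh38.p14, for names and overlap. Named regions were the 5 called in most libraries (ties by median −log10 q) and the region of highest −log10 q in each span. For each antibody, the knockdown-only and the control-only region with the highest minimum −log10 q over the libraries that call it were named as well. Members, lists and tests were chosen with earlier results of these data known. Alternatives were covered bases, other flanks, thresholds and length limits, leaving out each span or library, preparation means and a replicate block. Scripts ran in Python 3.11.15 with scipy 1.17.1, numpy 2.4.6, matplotlib 3.10.9 and pandas 2.3.3.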

Additional observations from a re-analysis of the deposited data

Results flagged for a closer look

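Intervals longer than 5000 bp, which stand outside the comparisons above, lay in the spans of 2 knockdown libraries and of no control library. Knockdown RELA replicate 2 listed 173, which covered 3.74 Mb or 20.2% of the spans, and knockdown NFKB2 replicate 2 listed 199, which covered 4.45 Mb or 24.0%. The longest was 322196 bp in both libraries, and each of the other 10 libraries had 0. The relative IP depth was 0.038 and 0.051 in these libraries and 0.052 to 0.071 in the others, and the part of depth in the long intervals was not tested.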

How the results depend on the processing

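Of 370 values over 23 results under alternatives, 285 kept their direction and their side of the threshold (or, for counts, their size), 36 reversed, 31 moved, 17 were weaker and 1 was stronger. In covered bases, the knockdown minus control log2 density ratio was 0.035 for RELA, 0.24 for NFKB2 and 0.087 over all antibodies, and NFKB2 minus RELA was −0.056, NFKB2 minus RELB 0.0046 and RELB minus RELA −0.061. Against the rest of the 7 chromosomes, RELB knockdown minus control was 0.021 and NFKB2 minus RELA −0.14. At a q of at most 0.05, spans over flanks was 5.48. Knockdown minus control was then 0.52 (RELA), 0.095 (RELB), 1.75 (NFKB2) and 0.79 (all), and NFKB2 minus RELB 1.06. These density ratios rest on 0 to 8 flank peaks per library. The Jaccard separation by antibody at this q was −0.013. Regions tied to the knockdown and to the control then numbered 0 and 4 (RELA), 0 and 5 (RELB) and 3 and 4 (NFKB2), and with the 20000 smallest p-values 11 and 41, 13 and 34, and 17 and 22, with 1.14 for spans over flanks. These counts fall because fewer peaks enter. Without a length limit the antibody separation was −0.00081. For the other reversals the cause was not tested.

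With the means of the 4 preparations, where no p can pass 0.05, spans over flanks (−0.67, exact p = 0.125), the share with a q of at most 0.05 (2.28 points), the median length (−41.75 bp), fragments (−2.33) and background (−0.92; adjusted exact p = 0.156 each) and the median fold (−0.20, adjusted exact p = 0.25) lost their calls by construction. Summits of 2 or more fragments, chosen after seeing the data, gave −1.57 for spans over flanks. Knockdown minus control ratios were then 0.023 (RELA), 0.58 (RELB) and 0.17 (all). This filter took no peak from the 2 scaled knockdown libraries, so these ratios do not compare like with like. Also chosen after seeing the data was leaving out the 2 scaled libraries or the 2 with long intervals. Without the latter the median fold difference was −0.18 (adjusted exact p = 0.109, against 0.00195 to 0.25 over its alternatives), and the Jaccard separation by antibody was −0.0018.

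Leaving out 1 library at a time gave −0.70 to −0.61 for spans over flanks, −0.92 to −0.27 for RELA knockdown minus control, −0.14 to 0.042 for RELB (above 0 without knockdown replicate 1), −0.24 to 0.043 for NFKB2 (above 0 without knockdown replicate 2) and −0.36 to −0.13 over all antibodies. It gave −0.10 to 0.12 for NFKB2 minus RELA, −0.24 to −0.086 for NFKB2 minus RELB and −0.015 to 0.34 for RELB minus RELA. The spread among preparations (SD 0.18, exact one-sided p = 0.201) ranged from 0.080 to 0.28 and was called without knockdown RELB replicate 2 alone (exact p = 0.0191). The share difference ranged from 1.94 to 2.38 points and the medians from −45.2 to −40.5 bp, −2.45 to −2.27 fragments and −0.95 to −0.89 background. The fold difference ranged from −0.26 to −0.19 and lost its call (adjusted exact p = 0.0654) without any 1 of the 10 unscaled libraries. Jaccard separations ranged from 0.0551 to 0.0728 by preparation, −0.0014 to 0.0118 by condition and −0.0034 to 0.0023 by antibody. With a single library in a condition the pattern is looser, and the knockdown-only counts ranged from 68 to 890 (RELA), 65 to 1412 (RELB) and 276 to 1265 (NFKB2), and the control-only counts from 429 to 1790, 345 to 1673 and 391 to 1426.

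Replicate numbers are shared by the labels without a stated link. Over the 7 spans, same-numbered knockdown and control libraries deviated together with r = 0.51 (RELA), 0.086 (RELB) and 0.12 (NFKB2). With the replicate number as a block, the differences stayed at −0.59, −0.05, −0.10 and −0.25 (exact p = 0.5, 1, 0.5 and 0.5, with 0.5 the smallest possible), and no call changed.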

Other observations

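Spacing of summits was compared with the length of an alpha-satellite monomer. Of 76516 distances up to 20 kb between span summits of a library, 24.0% lay within 20 bp of a multiple of that length. The flanks gave 24.0% of 560532 distances, and 24.0% is also the share of all possible offsets that lie this close. The measure pooled all multiples up to 20 kb, over which small deviations from the exact monomer length add up. It therefore cannot decide whether summits were spaced by monomer length, and no test was run.

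Some of the 9180 merged span regions were called in all 3 libraries of 1 preparation and in no other library. They numbered 41 and 27 for the control preparations (replicates 1 and 2) and 3 and 28 for the knockdown preparations. Of these, 2, 1, 0 and 2 had a q of at most 0.05 in a library. Knockdown replicate 1 holds the 2 scaled libraries, with 450 and 325 span peaks, so few regions could be called in all 3 of its libraries. Shares in the flanks are not given for this pattern. Regions called in 2 or 3 libraries lay within a single preparation in 21.3% of 2658 cases in the spans and in 23.2% of 24818 cases in the flanks.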
